A study of Mus musculus with 6 samples.

Results

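The 38 genes described here are genes that interferons switch on, together with 4 genes that carry peptide antigens to the cell surface. They were taken by symbol from the authors' deposited table of 25239 genes. All 38 were listed and all 38 had a fold change, out of 18446 genes with a fold change and 6793 genes listed with a mean of 0. Polyadenylated RNA came from mouse cortex that had been electroporated in the uterus at E13.5, and the RNA dates from E15.5. There are 2 groups of 3 libraries. In the first, the Ccnd2 Thr280Ala variant (labelled MPPH) was inserted by the Breasi-CRISPR method; the second received GFP only. Both groups are labelled C57BL/6J and wild type in genotype, and no control edited without the variant appears in them, so the variant and the editing cannot be told apart. Nothing there says whether libraries came from separate embryos, so the spread that p-values are set against may be technical. The sources used here do not say which group stands on top of the fold change. The 2 sides are therefore called the positive and the negative side, and neither is tied to a group.

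Interferons are secreted proteins that cells release when they sense foreign or misplaced nucleic acid. Type I interferons bind a receptor whose kinases, JAK1 and TYK2, phosphorylate STAT proteins, among them STAT2; these join IRF9 and bind a short DNA element, the interferon-stimulated response element, upstream of their target genes. The targets include further sensors of viral RNA and DNA, enzymes that degrade or block viral RNA, the ubiquitin-like modifier ISG15, and the MHC class I pathway that shows peptides to T cells. In brain, microglia, vessel cells, meninges and neurons can all express such genes.

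Among the 38 genes, 28 had a promoter in a RefSeq table of windows from 250 bases before to 50 bases after a gene's start (build GRCm38.p6). The core of the interferon-stimulated response element was searched for as 2 copies of GAAA separated by 2 bases, on either strand (TTTC on the other), with overlapping matches counted. It was found in 13 of the 28 genes, and in 3.44% of all 32851 promoter windows, or 3.99% of the 27025 genes that have one. In Ifih1, Ddx58 and Eif2ak2 the match lay after the start. The core of the gamma-activated site, TTC and GAA separated by 3 bases, was found in 6 of the 28 genes. It was found in 8.3% of all windows, or 9.55% of the genes that have one. A match is a run of letters and no evidence of binding. Ifi27, Mx1, Oas2, Parp14, Usp18, Rtp4, Zbp1, Parp9, Mx2 and Dhx58 had no window in the table. The windows below, all upstream of the annotated gene body, are shown because they carry the element in genes whose reads are followed through the libraries below; capitals mark the matches, and each run is read 5′ to 3′ in the direction of the gene.
Isg15 (chr4:156200850-156200921, minus strand): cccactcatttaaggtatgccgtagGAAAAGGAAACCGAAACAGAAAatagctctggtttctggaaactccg
Bst2 (chr8:71537562-71537627, minus strand): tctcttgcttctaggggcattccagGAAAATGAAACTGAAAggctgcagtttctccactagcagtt
Ifit1 (chr19:34640760-34640838, plus strand): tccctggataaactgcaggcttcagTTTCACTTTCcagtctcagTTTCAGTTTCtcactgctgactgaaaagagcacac
Ifit3 (chr19:34583348-34583441, plus strand): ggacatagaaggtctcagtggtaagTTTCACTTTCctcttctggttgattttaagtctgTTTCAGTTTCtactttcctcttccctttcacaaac
Oas1a (chr5:120907526-120907570, minus strand): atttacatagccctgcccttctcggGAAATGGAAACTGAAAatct
Rsad2 (chr12:26456538-26456597, minus strand): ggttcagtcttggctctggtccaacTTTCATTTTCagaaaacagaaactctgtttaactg
B2m (chr2:122147523-122147582, plus strand): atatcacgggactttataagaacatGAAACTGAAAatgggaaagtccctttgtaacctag
Stat2 (chr10:128270251-128270310, plus strand): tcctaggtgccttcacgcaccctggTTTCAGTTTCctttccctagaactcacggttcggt
Isg15 held 3 overlapping copies of the core, Bst2 and Oas1a 2 overlapping copies each, and Ifit1 and Ifit3 2 separate copies each. Rsad2, B2m and Stat2 held 1 copy each.

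The authors' table has no values per library, but its base means, the mean over the 6 libraries of reads divided by size factors, were printed with enough digits to recover the whole reads behind them. All 38 members resolved into exactly 1 set of 6 whole numbers. For 22 this came from the mean alone, and for 16 from the mean together with the deposited fold change and standard error. Reads divided by the library's size factor are called normalised reads below. The libraries carry numbers within a side by falling size factor, which were 1.11, 1.02 and 0.904 on the positive side, against 1.11, 1.04 and 0.850 on the negative side, and no library could be matched to a label. The sources used here do not give total reads per library.

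All fold changes with their standard errors, and all p-values except that of the permutation test, are taken from the authors' deposited table. No member passed the authors' test, an adjusted p under 0.05 by DESeq2 with Benjamini-Hochberg adjustment over all genes tested, which 0.136% of all genes did. At an unadjusted p under 0.05, 4 members lay on the positive side, where 2.77% of all genes did, and 0 on the negative side, where 1.19% of all genes did. The 4 were H2-K1, H2-D1, Tap1 and Ifi27. Fold changes were above 0 in 29 members and below 0 in 9, beside 48.8% above 0 among all genes. Their median log2 fold change was 0.34, beside -0.0044 over all genes tested. In reads, the median log2 ratio of the side means was 0.33. It was -0.10 without positive-side library 2 and 0.0024 without negative-side library 1, with 18 and 19 of 38 members above 0, so the direction of the whole set rested on those libraries.

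**Figure D1:**
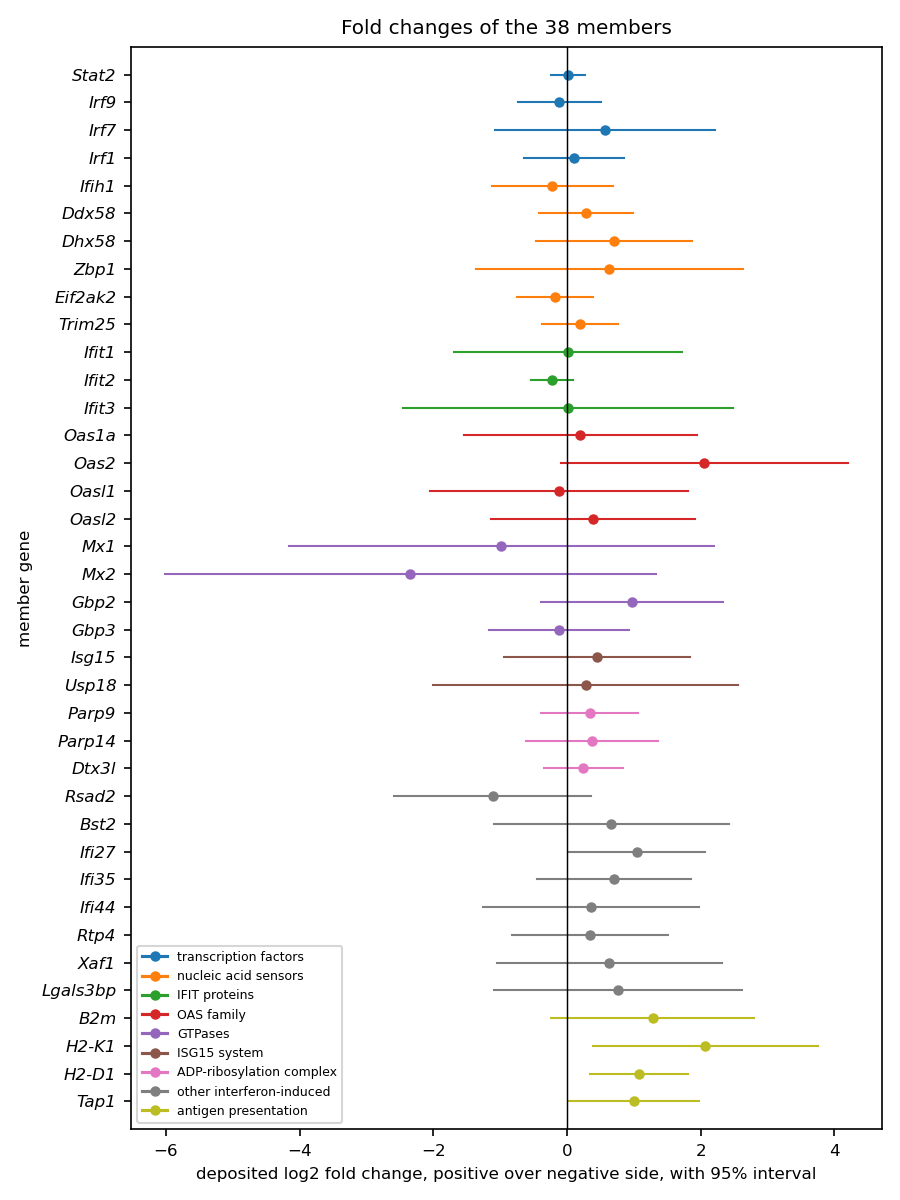
Deposited log2 fold change of each of the 38 members, positive over negative side (horizontal axis), with its 95% interval as a line; colours mark the roles. The intervals of H2-K1, H2-D1, Tap1 and Ifi27 lie above 0, and the other 34 cross 0.

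The standard errors of these genes were wide for their abundance. The standard error of the log2 fold change was above the median of the 200 genes nearest in base mean for 35 of 38 members, beside 47.2% of all genes. It was more than 2 times that median for 10 members, beside 1.68% of all genes. These 10 were B2m, H2-K1, Bst2, Lgals3bp, Usp18, Ifit3, Irf7, Oasl2, H2-D1 and Rsad2. The median ratio over the members was 1.62. Irf1, Stat2 and Ifit2 had ratios of 0.94, 0.97 and 0.99, close to their neighbours in abundance.

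**Figure D2:**
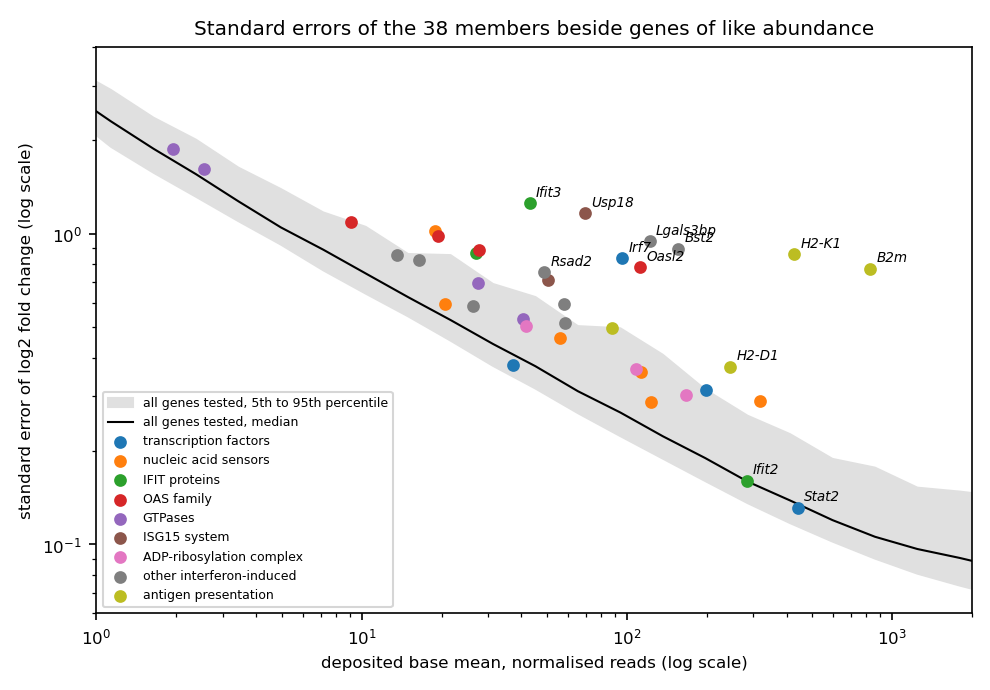
Standard error of the log2 fold change against deposited base mean, both on log scales, for the 38 members (points, coloured by role), with the median (line) and the 5th to 95th percentile (band) of all genes tested. H2-K1 and B2m lie farthest above the band at high means, Ifit3 and Usp18 at lower means, and Stat2 and Ifit2 lie on the median line.

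Within each side, the reads showed the same lowest library in most members. This pattern was noticed after the reads had been seen, and it is given as a description. On the positive side, library 3 was lowest in 37 of 38 members, the exception being Mx1, beside 47.6% of the 7412 genes with a mean of 1 to 300 whose reads were recovered. On the negative side, library 1 was lowest in 37 of 38, the exception being Stat2, beside 35.0% of those genes. Both held in 36 members, beside 18.5% of those genes. In 34 members these were the 2 lowest of all 6 libraries, beside 12.2% of those genes; Stat2, Ifit2, Mx1 and Rtp4 were the exceptions. Positive-side library 2 was the highest of the 6 in 27 members, beside 27.6% of those genes. The sides did not overlap in 0 members, beside 11.1% of those genes. Negative-side library 1 had the highest size factor of the 6 and positive-side library 3 the second lowest; the part of depth in this pattern was not tested.

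Relative to each gene's own mean over 6 libraries, the median over the 35 members with a mean of at least 10 was 1.18, 1.595 and 0.495 in positive-side libraries 1, 2 and 3. In negative-side libraries 1, 2 and 3 it was 0.328, 1.06 and 1.135. In positive-side library 3 the members ran from 0.057 to 0.98 of their own mean, and in negative-side library 1 from 0.048 to 1.04. Of the 35, 16 were at least 2-fold below both other libraries of the side in both libraries (after adding 0.5 to each normalised value), beside 1.65% of 4955 genes with a mean of 10 to 300. The reverse, at least 2-fold above in both, was found in 0 of the 4955.

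**Figure D3:**
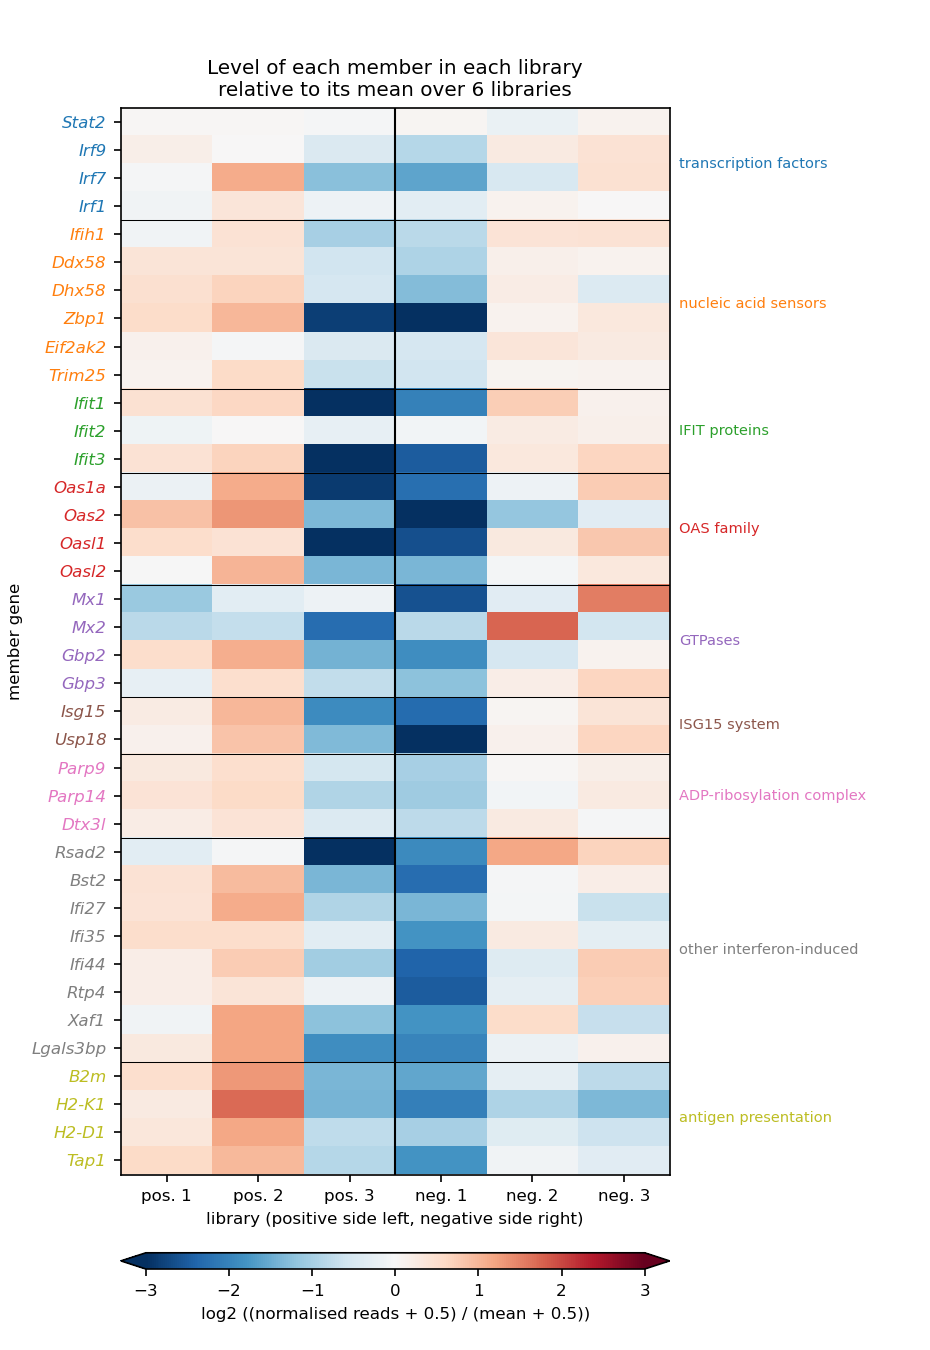
Colour gives the log2 level of each of the 38 members (rows, grouped by role) in each library (columns, positive side left, negative side right) relative to the gene's mean, after adding 0.5. The columns of positive-side library 3 and negative-side library 1 are blue in most rows, and those of Stat2 and Ifit2 are pale throughout.

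The members ranged widely in abundance. B2m was highest per length, at 961 normalised reads per kilobase of annotated exon, followed by Bst2 at 173, H2-K1 at 146 and H2-D1 at 94.8. Stat2 had 74.5, Ifit2 71.9, Isg15 66.9 and Trim25 55.4 per kilobase. Mx1 and Mx2 were lowest, at 0.67 and 0.54 per kilobase.

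Of the 4 transcription factors, 3 had fold changes above 0, and 0 were called. Stat2, the partner of IRF9 in the complex that reads the element shown above, had 449, 449 and 434 normalised reads on the positive side, against 459, 384 and 475 on the negative side. Its levels were nearly flat, and the sides overlapped. The log2 fold change was 0.02 ± 0.13 (standard error), with a 95% interval of -0.24 to 0.27. Irf9 had 226, 201 and 146 normalised reads on the positive side, against 110, 241 and 269 on the negative side. Its highest library was 1.55 times the lowest on the positive side, against 2.44 times on the negative side. The log2 fold change of Irf9 was -0.11 ± 0.31. Irf7, which drives the second wave of type I interferon and is itself interferon-induced, had 94.0, 209 and 39.8 normalised reads on the positive side, against 31.4, 68.2 and 132 on the negative side. Its highest library was 5.26 times the lowest on the positive side, against 4.19 times on the negative side. The log2 fold change was 0.57 ± 0.84, a standard error 3.19 times that of its neighbours in abundance. Irf1, a factor more tied to interferon gamma, ran from 33.2 to 48.0 normalised reads on the positive side and from 29.7 to 40.3 on the negative side. Levels of Irf1 differed little between libraries (log2 fold change 0.11 ± 0.38).

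The 6 genes grouped under nucleic acid sensing included the RNA helicases Ifih1 (MDA5), Ddx58 (RIG-I) and Dhx58 (LGP2). The others were the left-handed nucleic acid sensor Zbp1, the RNA-dependent kinase Eif2ak2 (PKR) and the ubiquitin ligase Trim25, which acts on RIG-I. All 6 were lowest in positive-side library 3 and negative-side library 1 of their sides. Dhx58 had 32, 34 and 13 whole reads on the positive side, against 9, 25 and 13 on the negative side. Ddx58 had 148, 149 and 75.2 normalised reads on the positive side, against 59.3, 126 and 121 on the negative side. The highest library of Dhx58 was 2.31 times the lowest on the positive side, against 2.97 times on the negative side. For Ddx58 these ratios were 1.98 and 2.12. The log2 fold changes were 0.70 ± 0.60 for Dhx58 and 0.29 ± 0.36 for Ddx58. Trim25, the most abundant of the 6, had 343, 474 and 200 normalised reads on the positive side, against 215, 337 and 342 on the negative side. Its log2 fold change was 0.19 ± 0.29. Zbp1 showed the steepest contrast, with 31, 39 and 2 whole reads on the positive side, against 1, 21 and 20 on the negative side. Ifih1 and Eif2ak2 had fold changes below 0, at -0.22 ± 0.46 and -0.18 ± 0.29.

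The IFIT genes encode proteins that bind viral RNA ends and block translation, and they lie together on chromosome 19. Ifit1 (chr19:34640871-34650009) had 37.1, 42.1 and 2.21 normalised reads on the positive side, against 6.29, 45.1 and 29.4 on the negative side. Ifit3 (chr19:34583531-34588731) had 57.8, 68.5 and 3.32 on the positive side, against 7.19, 53.8 and 67.1 on the negative side. In whole reads Ifit3 was at 64, 70 and 3 on the positive side, against 8, 56 and 57 on the negative side, so the low values rest on few reads but the gap to the other libraries does not. The side means of Ifit3 were nearly equal, 43.2 ± 35.0 normalised reads on the positive side, against 42.7 ± 31.4 on the negative side (SD, n = 3 each). Its log2 fold change was 0.02 ± 1.26, and the standard errors of all 200 genes nearest in mean were smaller. Of the 50-base stretches of Ifit3 transcripts, 51.2% also occur in another gene, almost all in Ifit3b, so reads of the pair may have been split in counting. Ifit2 (chr19:34550694-34576419), their neighbour, did not share the contrast: it had 258, 286 and 239 normalised reads on the positive side, against 266, 334 and 312 on the negative side. Its highest library was 1.20 times the lowest on the positive side, against 1.26 times on the negative side, and its log2 fold change was -0.22 ± 0.16.

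**Figure D4:**
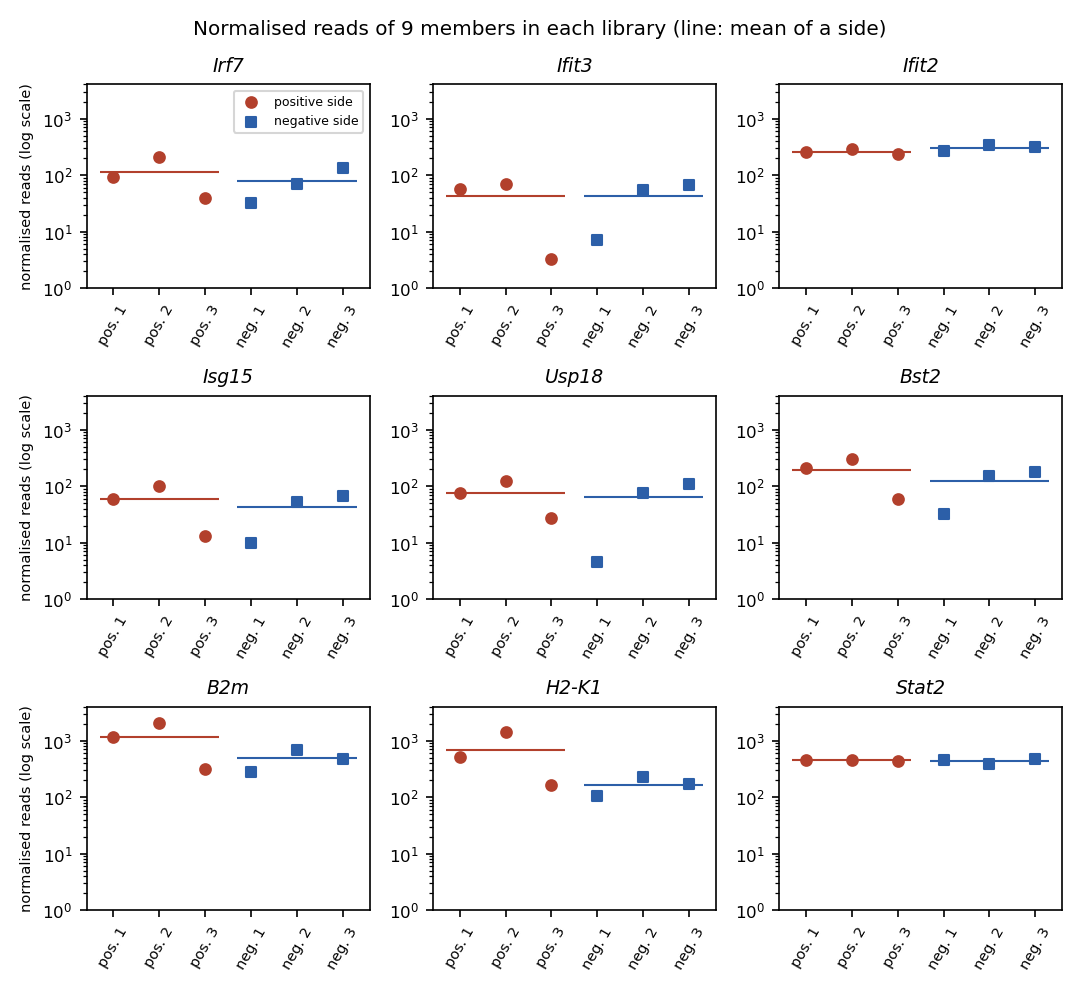
Normalised reads (vertical log axis) of 9 members in the 3 libraries of the positive side (circles) and the 3 of the negative side (squares), with the mean of each side as a line. Irf7, Ifit3, Isg15, Usp18 and Bst2 are lowest in positive-side library 3 and negative-side library 1, whereas Ifit2 and Stat2 differ little between libraries.

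The OAS family makes 2′-5′ oligoadenylates that switch on RNase L, with Oasl1 and Oasl2 as relatives. All 4 members were lowest in the same library of each side. Oas2 had 17.2, 23.5 and 3.32 normalised reads on the positive side, against 0, 3.84 and 7.06 on the negative side. The low levels leave its log2 fold change at 2.05 ± 1.10, with a DESeq2 adjusted p of 1.00. Oasl2 had 111, 227 and 43.1 on the positive side, against 43.1, 108 and 140 on the negative side. Its highest library was 5.26 times the lowest on the positive side, against 3.25 times on the negative side, and its log2 fold change was 0.39 ± 0.78. Oasl1 had 31, 27 and 1 whole reads on the positive side, against 3, 25 and 29 on the negative side, much like Ifit3. Oas1a had 27, 62 and 3 on the positive side, against 6, 26 and 40 on the negative side, but 57.6% of its 50-base stretches also occur in another gene, mostly Oas1g.

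Mx and guanylate-binding proteins are GTPases that trap viral components. Mx1 and Mx2, which many laboratory mouse strains carry in a defective form, were barely detected, with 14 and 12 whole reads over the 6 libraries. Of the 12 reads of Mx2, 8 were in negative-side library 2. Gbp2 had 39.8, 58.7 and 9.95 normalised reads on the positive side, against 7.19, 19.2 and 29.4 on the negative side, again lowest in 1 library of each side. The log2 fold change of Gbp2 was 0.97 ± 0.70. Gbp3 ran from 24.3 to 57.7 on the positive side and from 17.1 to 63.5 on the negative side.

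Isg15 encodes a ubiquitin-like protein that is joined to other proteins, and Usp18 the protease that removes it and also damps the type I receptor. Isg15 had 59.7, 102 and 13.3 normalised reads on the positive side, against 9.88, 52.8 and 65.9 on the negative side. Usp18 had 75.9, 125 and 27.7 on the positive side, against 4.49, 75.8 and 108 on the negative side. Its highest library on the negative side held 24.1 times its lowest, 92 whole reads against 5. The log2 fold changes were 0.45 ± 0.71 for Isg15 and 0.28 ± 1.16 for Usp18. Without positive-side library 2 the log2 ratio of Usp18 from reads was -0.28, and without negative-side library 1 it was -0.27.

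Parp9, Parp14 and Dtx3l encode ADP-ribosyltransferases and the ubiquitin ligase that pairs with PARP9. Parp9 had 133, 154 and 74.1 normalised reads on the positive side, against 53.9, 110 and 122 on the negative side. Dtx3l had 196, 220 and 126 on the positive side, against 96.1, 200 and 162 on the negative side. All 3 genes were lowest in the same library of each side and highest in positive-side library 2. Their highest library was 1.75 to 2.83 times their lowest within a side. The log2 fold changes were 0.34 ± 0.37 for Parp9, 0.25 ± 0.30 for Dtx3l and 0.37 ± 0.50 for Parp14. Parp9 and Dtx3l lie on opposite strands and share 458 exonic bases, and the sources used here do not say whether counting used strand.

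Of the 8 remaining interferon-induced genes, 7 had fold changes above 0, and all 8 were lowest in the same library of each side. Ifi27, a mitochondrial protein gene, had 77.7, 127 and 31.0 normalised reads on the positive side, against 22.5, 55.7 and 36.5 on the negative side. The log2 fold change of Ifi27 was 1.04 ± 0.52 (unadjusted p = 0.043, DESeq2 adjusted p = 1.00), and 0.51 in reads without positive-side library 2. Bst2, the tetherin gene, whose protein holds enveloped virus at the cell surface, had 212, 301 and 59.7 on the positive side, against 31.4, 152 and 180 on the negative side. Lgals3bp, a secreted galectin-binding glycoprotein, had 149, 278 and 33.2 on the positive side, against 30.5, 108 and 133 on the negative side. Both were about 4 to 8 times lower in the lowest than in the highest library of a side, and their log2 fold changes were 0.66 ± 0.90 for Bst2 and 0.76 ± 0.95 for Lgals3bp. Rsad2, the radical-SAM enzyme viperin, was the exception in direction. It had 38.9, 48.0 and 5.53 normalised reads on the positive side, against 12.6, 110 and 77.7 on the negative side, and a log2 fold change of -1.11 ± 0.75. Its 2 lowest libraries were positive-side library 3 and negative-side library 1. Rtp4, Xaf1, Ifi35 and Ifi44 had log2 fold changes from 0.34 (Rtp4) to 0.70 (Ifi35), none of them called.

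The 4 antigen presentation genes had the highest fold changes as a group, with a median log2 fold change of 1.18 and standard errors 1.82 to 7.14 times those of their neighbours in abundance. B2m encodes the light chain shared by all MHC class I molecules. It had 1174, 2023 and 318 normalised reads on the positive side, against 279, 688 and 477 on the negative side. H2-K1 and H2-D1 encode the classical class I heavy chains. H2-K1 (chr17:33996017-34000347) had 514, 1397 and 161 on the positive side, against 102, 224 and 168 on the negative side. Here 2 libraries of the positive side stood above every library of the negative side, and the third lay within the negative side. H2-D1 (chr17:35262730-35267499) had 307, 544 and 145 on the positive side, against 123, 190 and 158 on the negative side, in the same order. Tap1, a subunit of the transporter that loads peptides, had 130, 172 and 48.7 on the positive side, against 25.2, 81.6 and 69.4 on the negative side.

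The log2 fold change of H2-K1 was 2.07 ± 0.86 (unadjusted p = 0.016, DESeq2 adjusted p = 0.83). For H2-D1 it was 1.08 ± 0.37 (unadjusted p = 0.0038, DESeq2 adjusted p = 0.37). A two-sided exact permutation test of the H2-D1 side means gave p = 0.3, where 3 libraries against 3 cannot go below 0.1. Tap1 had 1.00 ± 0.50 (unadjusted p = 0.044, DESeq2 adjusted p = 1.00), and B2m 1.28 ± 0.77 (unadjusted p = 0.097, DESeq2 adjusted p = 1.00). In reads without positive-side library 2 the log2 ratios were 1.04 for H2-K1, 0.53 for H2-D1, 0.61 for Tap1 and 0.63 for B2m, all still above 0. Of the 50-base stretches of H2-K1 and H2-D1, 9.63% and 12.8% also occur in other genes, mainly of the H2-Q group and each other, and Tap1 shares 212 exonic bases with Psmb9 on the other strand.

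Relative to the mean over 6 libraries, the median of the 4 antigen presentation genes was 1.34, 2.34 and 0.47 in positive-side libraries 1, 2 and 3, and 0.312, 0.805 and 0.611 in negative-side libraries 1, 2 and 3. For the 31 other members with a mean of at least 10 it was 1.16, 1.5 and 0.495 on the positive side, against 0.328, 1.08 and 1.20 on the negative side. The medians lay closest in positive-side library 3 and negative-side library 1 and farthest apart in positive-side library 2. A high value in 1 library lowers the other relative values by construction, and the difference between these medians was not tested.

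Of 10 interferon genes looked up, 9, among them Ifnb1, Ifna4 and Ifng, were listed with a mean of 0, and Ifnk had 1 read. The adult globin genes Hba-a1, Hba-a2, Hbb-bs and Hbb-bt and the nuclease gene Trex1 were listed at 0 as well, while the erythroid gene Alas2 had a base mean of 382, so a listed 0 does not show that a transcript was absent. Of 15 receptor and proximal signalling genes, 0 were called, and 1 had an unadjusted p under 0.05, on the positive side, where 2.77% of all genes did. The median log2 fold change of the 15 was 0.023. The receptor subunit gene Ifnar2 had 623, 569 and 612 on the positive side, against 530, 615 and 637 on the negative side, a narrow range. The smallest p values were those of the phosphatase gene Ptpn6 (1.04 ± 0.41, DESeq2 adjusted p = 0.65), Il10rb (0.49 ± 0.32) and the feedback inhibitor gene Socs1 (0.62 ± 0.42).

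Of 61 other interferon-induced genes, 60 were tested and 0 called. At an unadjusted p under 0.05 there were 12 positive and 0 negative genes, beside 2.77% and 1.19% of all genes. This list and those below were chosen with earlier results of these data known. The median log2 fold change of these other interferon-induced genes was 0.58. Of the 58 with recovered reads, 44 were lowest in positive-side library 3 and negative-side library 1 of their sides, beside 18.5% of all genes with reads. The smallest p values were those of Ly6e (0.39 ± 0.12, DESeq2 adjusted p = 0.25), Ifitm1 (1.66 ± 0.59) and Ifi30 (0.77 ± 0.29). Ifit3b, the close copy of Ifit3, had 23, 29 and 0 whole reads on the positive side, against 1, 24 and 22 on the negative side. Of 20 tested genes of the sensing pathway outside the 38, 0 were called and 0 had an unadjusted p under 0.05 in either direction, with a median log2 fold change of 0.19; 3 of the 18 with reads were lowest in both libraries, a share near the 18.5% of all genes with reads. Tlr7 (0.99 ± 0.51), Irf8 (0.69 ± 0.40) and Irf5 (0.74 ± 0.45) had the smallest p.

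Outside the members the MHC class I pathway had 22 tested genes, 0 called, and a median log2 fold change of 0.26. At an unadjusted p under 0.05 it had 3 positive and 0 negative genes, beside 2.77% and 1.19% of all genes. Of the 18 with reads, 13 were lowest in both libraries, beside 18.5% of all genes with a mean of 1 to 300 and reads. H2-Q4 had 119, 283 and 37.6 normalised reads on the positive side, against 35.0, 60.5 and 53.0 on the negative side, the same order as H2-K1 (log2 fold change 1.57 ± 0.55). H2-Q6 (3.89 ± 1.33) and the non-classical gene H2-M3 (1.54 ± 0.70) were the other 2. The MHC class II pathway, with 11 genes, was weakly expressed and had 0 called. Its median log2 fold change was 0.18, and -0.067 over those whose mean reached 10. Cd74, the invariant chain, was the 1 gene with an unadjusted p under 0.05, on the positive side, where 2.77% of all genes did. Cd74 had 13.6, 31.3 and 2.21 normalised reads on the positive side, against 5.39, 1.92 and 0 on the negative side. H2-Aa and H2-Oa came next by p.

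Marker lists differed in how far they followed the members. Lowest of their sides in positive-side library 3 and negative-side library 1 were 10 of 12 microglial genes and 4 of 8 of border-associated macrophages. Of monocytes and neutrophils 3 of 8 were, of meninges and fibroblasts 3 of 9 with reads, and of lymphocytes 1 of 6. Among all genes with a mean of 1 to 300 and reads the share was 18.5%. The 12 microglial genes summed to 4608, 4965 and 2145 on the positive side, against 1998, 3195 and 2972 normalised reads on the negative side. Of the 12, 10 were lowest in the same library of each side, and 0 were called; C1qa (0.86 ± 0.51) and Fcrls (0.47 ± 0.28) were among the 3 with the smallest p. The microglial sum was 0.65 of its mean in positive-side library 3 and 0.60 in negative-side library 1, beside medians of 0.495 and 0.328 for the members. For border-associated macrophages these values were 0.49 and 0.41, for monocytes and neutrophils 0.36 and 0.10, and for lymphocytes 0.64 and 0.30. They were 0.40 and 0.35 for meninges and fibroblasts, and 0.92 and 0.95 for endothelial cells. Markers of border-associated macrophages, 8 genes, summed to 1331, 1508 and 340 on the positive side, against 284, 415 and 297 on the negative side. F13a1 (4.59 ± 1.05, DESeq2 adjusted p = 0.024) was the 1 of 8 called, beside 0.136% of all genes. Lyve1 (4.85 ± 1.27) and Pf4 (2.62 ± 0.71) came next by p. The 8 monocyte and neutrophil markers summed to 108, 372 and 35.4 on the positive side, against 9.88, 13.4 and 43.5 on the negative side, with all 8 highest in positive-side library 2. S100a8 (3.71 ± 0.97), Plac8 (2.78 ± 0.85) and Camp (5.14 ± 1.76) had the smallest p of these.

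The meningeal and fibroblast list, chosen with earlier results of these data known, had 5 of 10 genes called, beside 0.136% of all genes. Col1a1 (5.11 ± 1.16), Cldn11 (6.70 ± 1.52), Bgn (0.65 ± 0.15), Aldh1a2 (6.26 ± 1.56) and Foxd1 (1.65 ± 0.41) were higher on the positive side, with DESeq2 adjusted p from 0.024 to 0.046. The 9 genes with reads summed to 5957, 7553 and 1181 on the positive side, against 1028, 878 and 978 on the negative side, so positive-side libraries 1 and 2 stood apart and the negative side was even. Among 10 lymphocyte genes Cd3e, Cd3d, Cd3g and Cd8a were listed at 0, and the other 6 summed to 14.4 to 80.4 normalised reads, mostly from Ptprc, which other blood-derived cells also express; Cd4 and Cd79a came next by p. Endothelial genes differed less: the 9 with reads summed to 3985, 4372 and 3400 on the positive side, against 3513, 3005 and 3818 on the negative side, with 1 of 9 lowest in both libraries. Their smallest p values were those of Cdh5 (0.35 ± 0.16), Pecam1 (0.28 ± 0.13) and Tie1 (0.21 ± 0.12). In bulk tissue fewer cells of a type and less RNA per cell cannot be told apart. The part of these cell types in the levels of the 38 genes was not tested.

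**Figure D5:**
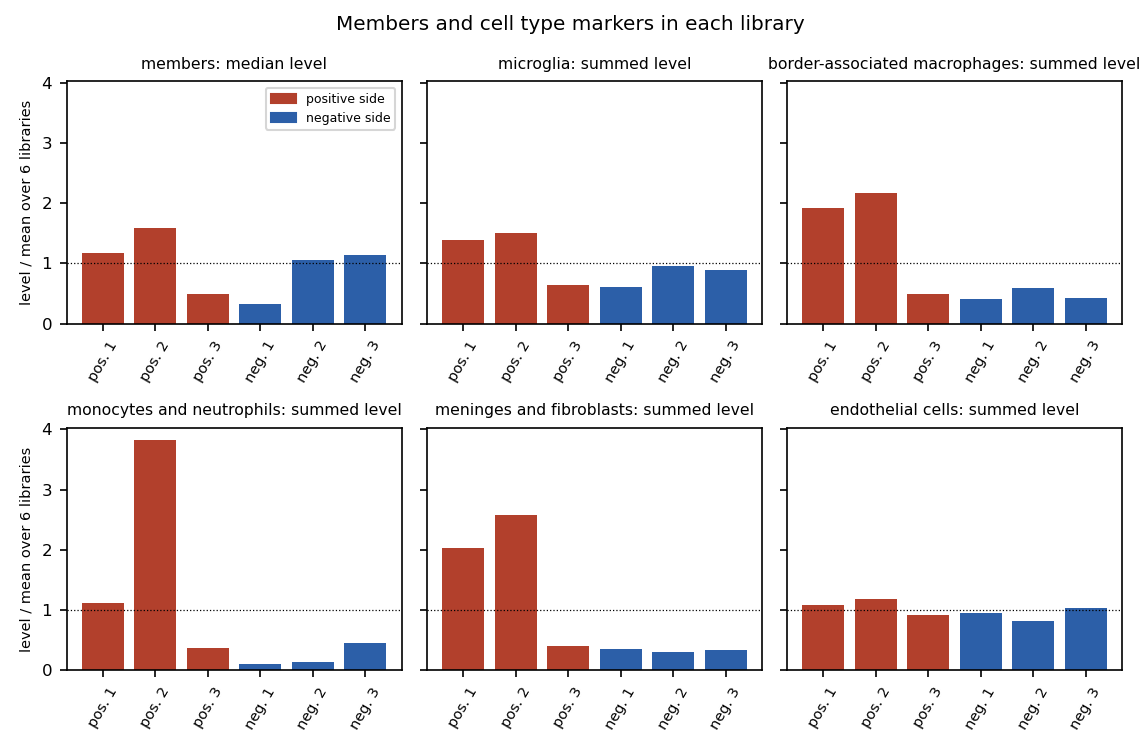
Bars give, for each library (positive side left, negative side right), the median level of 35 members relative to their own mean over 6 libraries (first panel) and the summed level of each marker list relative to its mean (other panels). Members and markers of microglia, border-associated macrophages, monocytes and neutrophils are lowest of their sides in positive-side library 3 and negative-side library 1. The negative side of the meningeal panel is even.

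Markers of cortical cells were abundant. Neuronal markers such as Tubb3 and radial glial markers such as Vim had base means of 70030 and 18270, and 0 of 8 cortical neuron genes and 0 of 8 radial glial genes were called. Sox2 (-0.33 ± 0.10, DESeq2 adjusted p = 0.20), Vim (0.19 ± 0.10) and Fabp7 (-0.16 ± 0.11) had the smallest p of the radial glial list. Of the intermediate progenitor list 0 of 5 were called, with Mfap4 (0.55 ± 0.15), Eomes (0.34 ± 0.16) and Neurog2 (0.35 ± 0.16) first by p. Bcl11b, Tubb3 and Map2 led the neuronal list, with log2 fold changes from -0.17 to -0.10. Among 9 erythroid genes 0 were called, and Hba-x (-0.47 ± 0.55) and Alas2 (0.05 ± 0.28) were among the 3 with the smallest p.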

How the data were processed

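RNA from 6 libraries in 2 labelled groups of 3 was compared by the authors, and 1 result table with 0 columns of values per sample was used. An RNeasy kit was used for the polyA RNA, per the labels' protocols. Build mm10 and, with no versions, featureCounts, cutadapt and DESeq2 are named in the submitters' processing notes. Aligner, annotation, strand setting and depth were not given in the sources used here. Per the file headers the deposited base mean is a signal, the mean of reads divided by size factors. The deposited fold change and standard error are in log2 units. The deposited Wald statistic is a score, fold change over standard error (within 2e-14). The authors' adjusted p-value equals a Benjamini-Hochberg adjustment over the 18446 genes tested to within 4.3e-14.

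No model was refitted. The worth of 1 read in each library came from 739 genes with a single read, refined on 4110 distinct means. Sets of 6 whole reads giving the deposited mean to within 1.5 units of its last of 15 digits were searched up to a mean of 75, where 6923 of 6923 genes had exactly 1 set. From 75 to 300 (1000 for listed genes) the set also had to give the deposited fold change to within 1e-06 on the log2 scale. That step also used the deposited standard error, and 2546 of 2548 genes up to 300 had exactly 1 set. Before it, as many as 434 sets near the deposited fold change gave the mean of a member (B2m). For the means of 5 to 75 the fold change was not used in the search. There the reads, with the deposited standard error, gave the fold change with a median difference of 2.6e-08 over 3146 genes. The largest difference was 0.067, and 5 genes were over 1e-05. The recovery was tested on simulated data. Members and gene lists were chosen with earlier results of these data known. Values in full were given for members with an unadjusted p under 0.05, the 2 smallest p per role, the 4 highest means and standard errors over 2 times that of the 200 genes nearest in mean, and for each list the called genes and the 3 smallest p; further members are named for their reads, chosen after their values were seen. Some genes that this rule takes in are counted in their lists but not reported here. Positions, exon lengths and shared stretches of 50 bases came from GENCODE M21 and promoters from RefSeq. Python 3.11.15, numpy 2.4.6, pandas 2.3.3, scipy 1.17.1 and numba 0.67.0 were used.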

Additional observations from a re-analysis of the deposited data

How the results depend on the processing

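No member passed the authors' adjusted p at 0.05, at 0.1, or when p-values were adjusted only over genes whose mean reached 10 or 50, while 4 had an unadjusted p under 0.05. The median log2 fold change of the members stayed between 0.28 and 0.35 under 4 alternatives, with 17 of 21 members above 0 at a mean of at least 50, where fewer members are counted. In reads, leaving out 1 library gave medians of -0.10 to 0.70, with 18 to 33 of 38 members above 0. Without positive-side library 3 and negative-side library 1 together, a setting chosen after seeing the data, the median was 0.27 with 28 above 0. Of the 22 members searched with the mean alone, 21 were lowest in both libraries, again over fewer members. With 100 or 500 neighbours in mean, 11 members had more than 2 times the neighbours' standard error. All 38 sets of reads were single at a tolerance 2 times as wide. No paired analysis was possible because no values per labelled library were used here. Reads under about 10 in a library (Zbp1, Oas2, Mx1 and Mx2, for example) limit what can be said of single genes, and total depth is unknown.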

Other observations

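Outside the 38 genes, 66 of the 82 genes with a mean of 10 to 300 that were at least 2-fold below the rest of the side in both positive-side library 3 and negative-side library 1 came from other sets: 16 from the other pathway lists, 4 from marker lists and 46 from no list. Those named here were chosen after their values were seen. Ifi209 and Ifi211, of the interferon-inducible p200 family, had 14.5, 29.4 and 2.21 normalised reads (Ifi209) and 13.6, 25.4 and 3.32 (Ifi211) on the positive side, and 16.3 and 17.6 (Ifi209) and 15.4 and 15.3 (Ifi211) in negative-side libraries 2 and 3. In negative-side library 1 they had 0 and 0.90. Several of the 46 are known from macrophages and other myeloid cells. Siglec1, a macrophage receptor gene that interferon also induces, had 58.8, 146 and 9.95 on the positive side, against 3.59, 23.04 and 12.9 on the negative side. Cybb, the catalytic subunit of the phagocyte oxidase, had 122, 119 and 29.9 on the positive side, against 19.8, 77.8 and 47.1 on the negative side. Spi1, the myeloid transcription factor PU.1, had 136, 148 and 49.8 on the positive side, against 37.7, 79.7 and 78.8 on the negative side. The 46 also held Foxc2, Cp, Serpinf1, Prelp, Slc6a20a and Cped1. Serpinf1 had 145, 221 and 9.95 on the positive side, against 6.29, 21.1 and 24.7 on the negative side. Crym, encoding a thyroid hormone-binding protein, had 457, 681 and 110 on the positive side, against 51.2, 123 and 220 on the negative side. Which cell types the 46 came from was not tested.

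Embryonic globin genes had the opposite order. Hba-x had 31.6, 25.4 and 91.8 normalised reads on the positive side, against 110, 58.5 and 36.5 on the negative side. Hbb-y had 88.6, 93.0 and 177 on the positive side, against 225, 132 and 14.1 on the negative side. Both were highest in the libraries in which most members were lowest, and neither was called (log2 fold changes -0.47 ± 0.55 and -0.05 ± 0.99).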
